A study of Homo sapiens with 4 samples.

Results

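Binding of the T-box transcription factor TBX3 was examined at 6 genes that encode the ZEB, SNAI and TWIST transcription factors: ZEB1, ZEB2, SNAI1, SNAI2, TWIST1 and TWIST2. The cells were 501mel, an established human melanoma line grown in RPMI-1640 medium with fetal bovine serum. TBX3 carried a 3xHA tag, and chromatin was precipitated with the HA antibody 12CA5 in 2 samples, with 2 input samples of sheared chromatin taken without antibody. Peak lists of the 2 ChIP samples were used, and the input was not analysed here. All samples came from the same cell line, so the data describe that line alone, and how the tagged protein was expressed is not given in the sources used here. The labels do not say that the replicates were separate cultures, so the spread between them may be technical. A member was any peak whose nearest gene in the deposited annotation was one of the 6, at any distance from its transcription start site (TSS). There were 20 such peaks among 32479 in replicate 1 and 29 among 40494 in replicate 2. Each peak was deposited as a single base, its summit.

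These proteins are best known as drivers of the epithelial to mesenchymal transition, in which they bind E-box sequences and repress adhesion genes such as that of E-cadherin. The ZEB proteins carry clusters of zinc fingers around a homeodomain, the SNAI proteins carry zinc fingers behind a repressive SNAG domain, and the TWIST proteins are basic helix-loop-helix factors that pair with E proteins. In melanocytes and differentiated melanoma cells ZEB2 and SNAI2 are the members usually expressed, and a switch towards ZEB1 and TWIST1 accompanies dedifferentiation and invasion. ZEB2 and SNAI2 are called the melanocytic pair below and ZEB1 and TWIST1 the invasive pair. The data hold no expression values, so which of these genes 501mel cells express was not examined.

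The 4 genes of the comparison differed in where TBX3 summits lay. ZEB2 had a summit at its start in both replicates and a group of high-ranking summits in the first 10 kb of the gene. SNAI2 had a promoter summit and a series of intergenic ones on both sides of it, all within 80 kb. TWIST1 was the nearest gene of many summits, but each one found in both replicates lay over 20 kb away. ZEB1 was the nearest gene of no summit in either list, and its span with 100 kb on both sides held none.

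The sequence under the ZEB2 summits is shown because they are the start-site summits of highest rank among the 6 genes, and stretches of ZEB1 windows are shown beside it because no summit lay there. All are 30 bases from the RefSeq promoter table (GRCh38.p14), written 5′ to 3′ on the strand of the gene. The ZEB2 stretch is chr2:144520260-144520289 on the minus strand, with the summit bases of both replicates in capitals. The ZEB1 stretches are on the plus strand, at chr10:31318325-31318354, chr10:31318966-31318995 and chr10:31320348-31320377, with the letters GGTGTG, the core of a T-box half-site, or their reverse complement in capitals. They are examples, 3 of 5 stretches found by taking the first match of either orientation in each ZEB1 window, and are labelled by their first base.
ZEB2: tcacgctcAgggcgcttcaatTatccctcc
ZEB1 at 31318325: gagcgcggaccgGGTGTGggaggccgaggt
ZEB1 at 31318966: ccccacCACACCtgaggaaaacttttccct
ZEB1 at 31320348: ccgggatgggccGGTGTGcgtgcgcctcgc

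The table holds windows of 300 bases around gene starts, 7 for ZEB1 and 1 each for ZEB2 and TWIST2, and none was used for the other genes. Searched on both strands, the T-box half-site AGGTGTGA was in none of the windows of these 3 genes and in 0.980% of all 35116 windows. Its core GGTGTG, which the longer motif contains, was in 4 of the 7 ZEB1 windows, in neither the ZEB2 nor the TWIST2 window, and in 16.8% of all. The E-box CACCTG, the form that ZEB and SNAI proteins bind, was in 2 of the ZEB1 windows, in neither of the others, and in 20.6% of all. The ZEB2 window thus held both summits and none of the 3 motifs, while ZEB1 windows held the core and no summit. A match or its absence describes these letters in these windows only.

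Summits of the lists were paired where each was the nearest to the other and they lay at most 200 bp apart, and such a pair is termed a shared region. At the 6 genes, 17 of the 20 replicate 1 summits had a partner (85.0%, 95% Wilson interval 64.0% to 94.8%), where 69.9% of all peaks in that list did. In replicate 2 it was 17 of 29 (58.6%, 40.7% to 74.5%), where 56.1% of all peaks did. Both intervals are wide, cover counting error only and include the share of their whole list. They treat the summits as independent, though summits of a gene share its locus and most of these named SNAI2 or TWIST1, so they may be too narrow. The widest pair among the members was 148 bp, at TWIST1, and the closest summits left unpaired were 346 bp apart, at SNAI2. Of the 6 genes, 5 were named by at least 1 shared region, all but ZEB1, where 27.7% of 19970 protein-coding genes were. ZEB2, SNAI2 and SNAI1 had one within 10 kb of the TSS, where 9.79% of protein-coding genes did. Members were in repeats in 6 of 20 cases in replicate 1 and 9 of 29 in replicate 2, which is 30% and 31.0% where both whole lists had 43.3%.

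**Figure D1:**
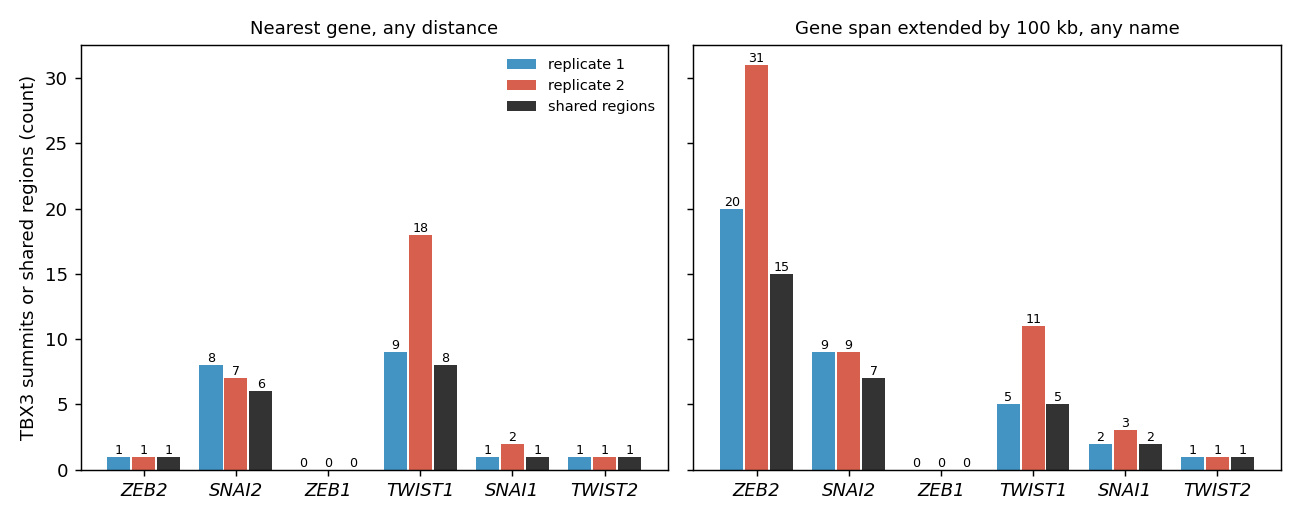
Number of TBX3 summits in replicate 1 (blue) and replicate 2 (red) and of shared regions (black) at each gene, counted by nearest gene on the left and within the gene span extended by 100 kb on the right. ZEB2 goes from 1 shared region to 15 between the panels, TWIST1 from 8 to 5, and ZEB1 has 0 in both.

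ZEB2, a zinc-finger homeodomain repressor that acts in neural crest and melanocyte development, lies on chromosome 2 in hg38 (GRCh38.p14 span 144384081 to 144520119, minus strand). The annotation named ZEB2 at 1 summit in each list, 144520268 in replicate 1 and 144520281 in replicate 2. These lay 123 bp and 110 bp downstream of the TSS used by the annotation, in exon 1 of 3 of NR_033258, which RefSeq lists as a transcript of ZEB2 that does not code for protein. Their scores were 114 and 166, ranks 1603 and 1715, which places them in the top 4.94% and 4.24% of their lists. The annotation's TSS lies 272 bp outside the RefSeq span, by which the summits are 149 bp and 162 bp upstream of the gene and not among the shared regions of the span given next. Ranks were nearly equal in the replicates, and the summits were 13 bp apart.

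That single name leaves out most of the ZEB2 locus. ZEB2-AS1, a non-coding gene on the opposite strand (144519614 to 144520899), has its TSS 777 bp inside the ZEB2 TSS, so summits further into ZEB2 are nearer to it and carry its name. The span of ZEB2 held 13 summits in replicate 1, of which 12 were named ZEB2-AS1 and 1 GTDC1, and 25 in replicate 2, of which 22 were named ZEB2-AS1 and 3 GTDC1. Of these, 12 were shared regions with a median of 32.5 bp between summits. Among 2580 protein-coding genes of 100 to 300 kb, 58.1% had a shared region in their span, the median was 1, and 99.6% had fewer than ZEB2.

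Within ZEB2 the summits of high rank were at the 5′ end. The strongest had summits at 144510552 and 144510523, 9839 bp and 9868 bp into the gene from its TSS, with scores of 233 and 358 and ranks 419 and 372. It was followed by 144512093 and 144512087 (ranks 1374 and 1578) and 144513890 and 144513870 (ranks 2653 and 2446). These 3 shared regions and the one at the start were all in the top 8.17% of both lists. A weaker one, at 144518539 and 144518567, was in the top 47.9% and 38.0%. All 5 were shared, and the 10 kb upstream of the TSS held no summit in either list.

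The rest of the ZEB2 span had lower ranks. It held 9 summits in replicate 1 with a median in the top 52.4%, none better than 42.2%, and 21 in replicate 2 with a median of 60.7%, none better than 24.1%. Most were in introns of ZEB2 by the deposited annotation. The 13 replicate 2 summits of the span without a partner had a median rank in the top 88.5%, where unpaired replicate 2 peaks as a whole had 73.3%. The summits that replicate 2 added were thus mostly near the bottom of its list. Upstream of the gene, a further shared region of high rank lay at 144559805 and 144559762, 39414 bp and 39371 bp from the TSS in an intron of the non-coding gene LINC01412, in the top 4.78% and 6.65%.

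**Figure D2:**
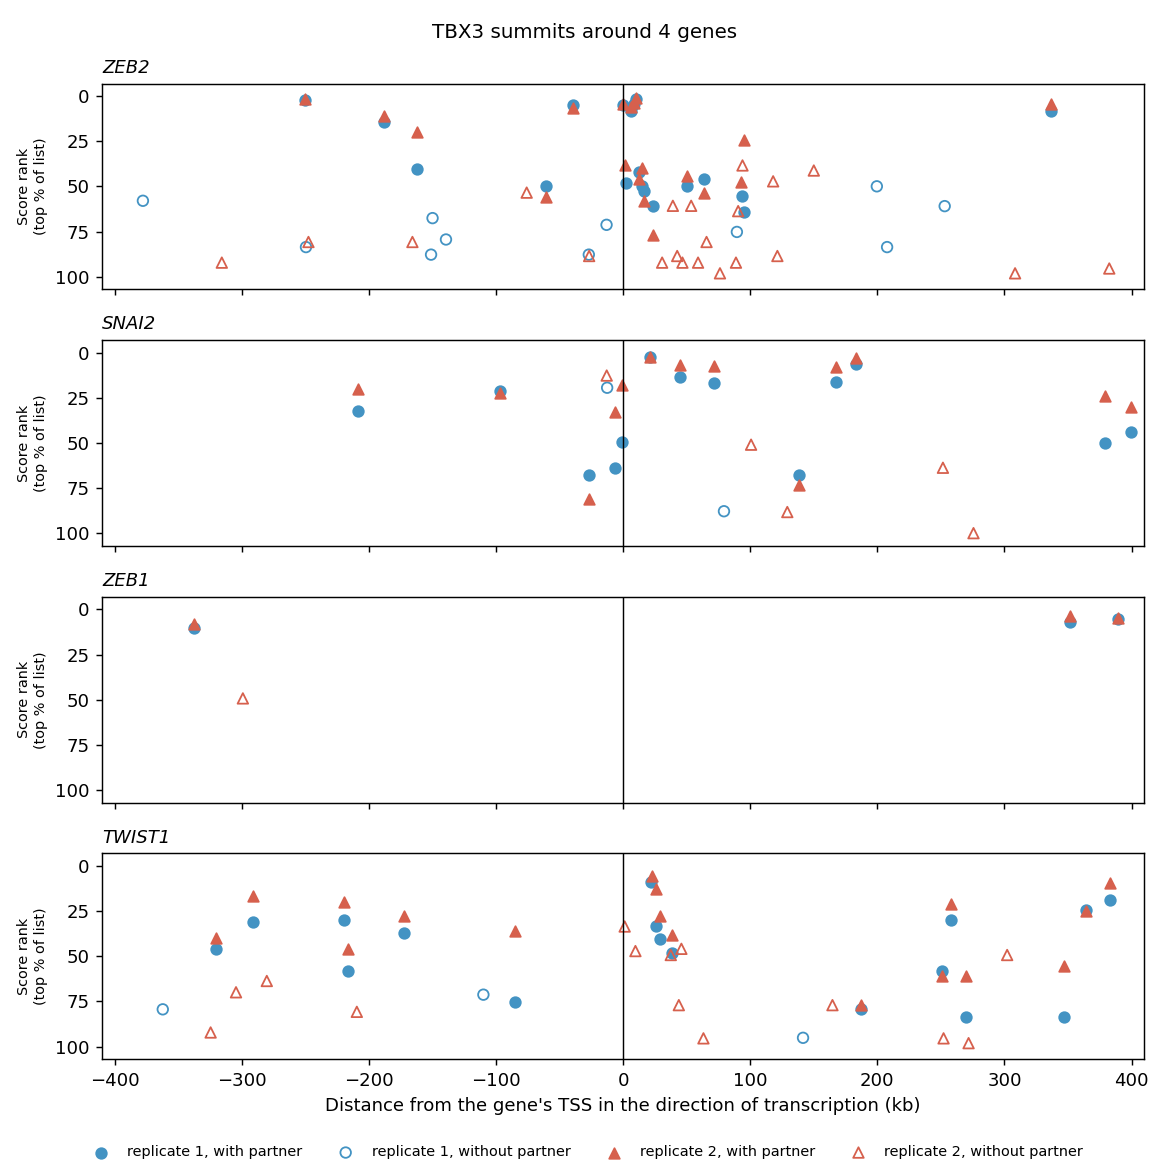
Each point is a summit, placed by its distance from the TSS of the gene in kb along the direction of transcription (x axis) and by its score rank as the top percentage of its list (y axis, best at the top), for replicate 1 (circles) and replicate 2 (triangles), filled where the summit has a partner within 200 bp. ZEB2 shows high-ranking pairs just inside the gene, SNAI2 pairs on both sides of the TSS, ZEB1 an empty middle, and TWIST1 pairs no nearer to the TSS than 22.3 kb.

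SNAI2, known as Slug, is a zinc-finger repressor needed by migrating neural crest cells and melanoblasts. It lies on chromosome 8 (48917598 to 48921429, minus strand). It was named at 8 summits in replicate 1 and 7 in replicate 2, which formed 6 shared regions. A promoter region had summits at 48921963 and 48921975, 523 bp and 535 bp upstream of the TSS. Its score was 13.1 in replicate 1 and 51.4 in replicate 2, so that it stood at the middle of the first list (top 49.5%) and in the top 17.8% of the second. A second region 6512 bp and 6501 bp upstream lay in an MLT1A0 long terminal repeat, in the top 64.0% and 32.7%. The promoter of SNAI2 thus had a summit in both lists.

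The SNAI2 summits of highest rank were beyond the gene, downstream. The strongest was intergenic, at 48900009 and 48899979, 21431 bp and 21461 bp from the TSS, with scores of 185 and 247 and ranks 685 and 860. This is the top 2.11% of replicate 1 and the top 2.12% of replicate 2. Next came 48876734 and 48876756, about 44.7 kb from the TSS, in the top 13.5% and 6.96%. The region at 48849723 and 48849791, about 71.7 kb from it, was in the top 16.8% and 7.17%. All 3 were outside repeats, and each ranked in the top 16.8% of both lists or better.

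The other SNAI2 summits were upstream or weak. A pair of summits 12595 bp and 12941 bp upstream, at 48934035 and 48934381, ranked in the top 19.3% and 12.6% but lay 346 bp apart, beyond the pairing limit. A shared region 26807 bp and 26879 bp upstream was in a TG simple repeat and in the lower part of both lists (top 67.5% and 80.8%). A summit 79323 bp downstream, in an L2 element, was in replicate 1 alone, in the top 87.8%.

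ZEB1, the paralog of ZEB2 that marks dedifferentiated melanoma cells, lies on chromosome 10 (31318417 to 31529804, plus strand). No summit of either list named it. The nearest summits before the gene were at 30981085 in replicate 1 and 31019211 in replicate 2, which is 337332 bp and 299206 bp from its start, and both were in introns of ZNF438. After the gene they were at 31669630 and 31669617, a shared intergenic region 139826 bp and 139813 bp beyond its end with ARHGAP12 nearest. That region had scores of 92.2 and 189, in the top 7.03% and 3.47%, so peaks of high rank were listed in this part of the chromosome.

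The interval free of summits around ZEB1 spanned 688545 bp in replicate 1, and in replicate 2 it spanned 650406 bp. Intervals at least that long held 12.9% of protein-coding genes in replicate 1 and 8.45% in replicate 2, so such emptiness is not rare. The deposited peak numbers run without a break, and the flanking peaks carry neighbouring numbers, so the lists used here lack no peak between them. Within 1 Mb of the span there were 10 summits in replicate 1 and 15 in replicate 2, where protein-coding genes had medians of 18 and 23. The absence of a summit is an absence from these lists at unknown read depth.

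TWIST1, a basic helix-loop-helix factor of cranial mesoderm and neural crest, lies on chromosome 7 (19113047 to 19117636, minus strand). It was named at 9 summits in replicate 1 and 18 in replicate 2, which formed 8 shared regions. Downstream of TWIST1 lies HDAC9, a histone deacetylase gene of 915592 bp (18086825 to 19002416) whose introns are known to contain enhancers of TWIST1. Of the shared regions, 4 were in HDAC9 introns, from 186843 bp to 269994 bp from the TSS in replicate 1, and 4 were intergenic between the genes, from 22301 bp to 38454 bp.

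The strongest TWIST1 region was at 19095371 and 19095332, 22301 bp and 22340 bp downstream of the TSS, with scores of 76.5 and 135 and ranks 2905 and 2287 (top 8.94% and 5.65%). Beside it, the region at 19091993 and 19092044 was in the top 33.5% and 12.8%, and the other intergenic regions, at 19088712 and 19079218 in replicate 1, lay in L1 elements. Within HDAC9 the best was in intron 20 of 22, at 18859486 and 18859484, with ranks 9739 and 8423. The 3 further regions there ranked no better than the top 57.9% of either list.

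No TWIST1 summit near the gene recurred. Replicate 2 had a summit in the only intron of TWIST1, at 19116474, in a CpG island 1198 bp from the TSS, with a score of 24.6 (top 33.5%). Another lay at 19108016, 9656 bp from the TSS, in the top 47.1%. In replicate 1 the nearest summits were 21103 bp and 12645 bp away from these. Of the replicate 2 summits, 10 had no partner, and their median rank was in the top 63.2%, against 33.0% for the 8 with one. The summits found in replicate 2 alone thus tended to rank lower. The same held for the whole replicate 2 list, with medians of 73.3% without a partner and 29.2% with one.

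SNAI1, or Snail, a zinc-finger repressor of E-cadherin, lies on chromosome 20 (49982980 to 49988886, plus strand). It had a promoter region at 49982584 and 49982496, 392 bp and 480 bp upstream of the TSS, with scores of 14.5 and 26.0, in the top 45.5% and 31.8%. Replicate 2 alone had a summit at 49989618, at the transcription termination site, in the top 34.6%. TWIST2, a paralog of TWIST1 on chromosome 2 (238848085 to 238910534, plus strand), was named at 1 shared region, at 238801882 and 238801970. It was 46150 bp and 46062 bp upstream, in a Tigger3b DNA transposon, in the top 30.8% and 18.7%. Both genes thus had a single shared region, of middle rank at the promoter of SNAI1 and of somewhat higher rank far from TWIST2. The summits were 88 bp apart at either gene, and with pairing within 50 bp neither was shared, which leaves 3 of the 6 genes named by a shared region. The share of all protein-coding genes named at 50 bp was not computed. The 27.7% given above holds for pairing within 200 bp and is not the share to set beside this count.

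By nearest gene the counts of the melanocytic and invasive pairs had no common direction in the replicates. ZEB2 and SNAI2 were named at 9 and 8 summits in replicates 1 and 2 (mean 8.50 ± 0.707 SD, n = 2), and ZEB1 and TWIST1 at 9 and 18 (13.5 ± 6.36 SD, n = 2). They had 7 and 8 shared regions. Among named summits the median distance to the TSS was 21431 bp and 17201 bp for the melanocytic pair. It was 141532 bp and 54490 bp for the invasive pair, whose values all come from TWIST1. These medians depend on the naming. Summits further into ZEB2 carry the name ZEB2-AS1 and are left out, while TWIST1 was named at summits up to 269994 bp and 302135 bp away. Median distances in windows that ignore the name were not computed, so no difference between the pairs is read from them. Within 10 kb of the named TSS there were 3 summits in each replicate at the melanocytic pair, and 0 and 2 at the invasive pair.

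In windows that ignore the name the melanocytic pair had more. Within the spans extended by 100 kb, ZEB2 and SNAI2 had 29 summits in replicate 1 and 40 in replicate 2 (34.5 ± 7.78 SD, n = 2). ZEB1 and TWIST1 had 5 and 11 (8.00 ± 4.24 SD, n = 2), all of them at TWIST1. The median protein-coding gene had 2 in either replicate, so TWIST1 lay above it and ZEB1, with 0, below. The shared regions were 22 against 5, and the difference turned from -1 by nearest gene to 17. Of this, ZEB2 gave 15 and SNAI2 7, while TWIST1 gave all 5 of the invasive pair. Set per length of the window, shared regions numbered 4.46 per 100 kb at ZEB2, 3.43 at SNAI2, 2.44 at TWIST1, 0.971 at SNAI1, 0.381 at TWIST2 and 0 at ZEB1, where the median protein-coding gene had 0.475. No test was made, because these are 4 chosen genes and genes are not replicates of a group.

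The order of the genes in these windows differed between the replicates only for SNAI2 and TWIST1. Replicate 1 had 20 summits in the window at ZEB2, 9 at SNAI2, 5 at TWIST1, 2 at SNAI1, 1 at TWIST2 and 0 at ZEB1. Replicate 2 had 31, 9, 11, 3, 1 and 0 in the same order of genes, so SNAI2 and TWIST1 changed places. Of all protein-coding genes, 69.1% had a shared region in such a window, as did 5 of the 6 genes here. ZEB2 had more shared regions there than 99.7% of them, SNAI2 than 95.6%, TWIST1 than 89.8%, SNAI1 than 57.3% and TWIST2 than 30.9%. Set per length of the window, ZEB2 exceeded 99.7% of protein-coding genes, SNAI2 99.0%, TWIST1 96.2%, SNAI1 74.7% and TWIST2 37.0%. ZEB2, SNAI2 and TWIST1 thus stood near the upper end of all genes per length, with TWIST1 somewhat below by count. ZEB1 was among the 30.9% of genes with none.

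**Figure D3:**
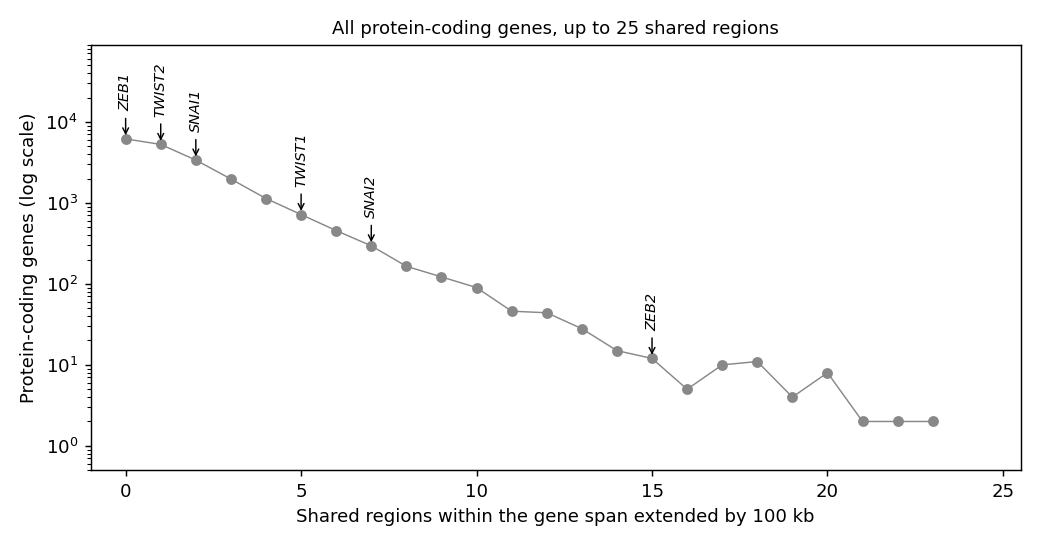
Number of protein-coding genes (y axis, log scale) by the number of shared regions in the gene span extended by 100 kb (x axis, up to 25), with the 6 genes marked. ZEB1 is at 0, TWIST2 at 1, SNAI1 at 2, TWIST1 at 5, SNAI2 at 7 and ZEB2 at 15.

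Score ranks come from lists of unequal length, so no change between the samples is read from them. Among the 29 shared regions that name one of the 6 genes or lie in the ZEB2 span, 4 stood in the best 5% of both lists. They were the one at the ZEB2 start, the 2 in the gene 9.8 kb and 8.3 kb from its TSS, and the SNAI2 region 21.4 kb downstream. The share of all shared regions in the best 5% of both lists was not computed, so this count has no background beside it.

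**Figure D4:**
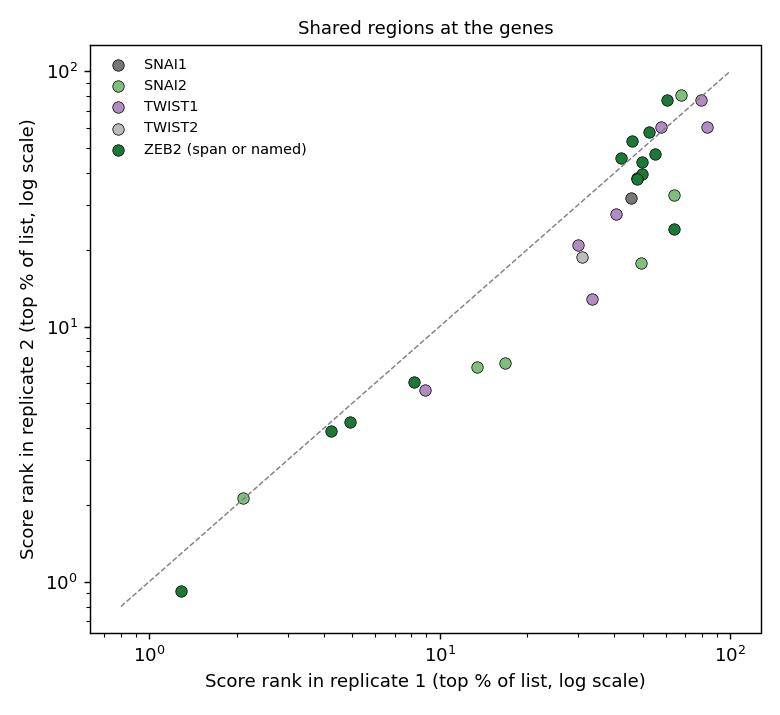
Score rank of each shared region in replicate 1 (x axis) and replicate 2 (y axis) as the top percentage of its list, both on log scales, for regions that name one of the genes or lie in the ZEB2 span, with the line of equal rank dashed. The best-ranked regions, at ZEB2 and SNAI2, lie close to the line, and regions of middle rank lie mostly below it, at a smaller percentage of the longer replicate 2 list, from which no change is read. In all, 22 of the 29 regions (75.9%) had the smaller percentage in replicate 2, where 66.9% of all 22702 shared regions did.

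By counts of replicate 1 summits, replicate 2 summits, shared regions and shared regions within 10 kb, the genes most like SNAI2 were CPB2, with the same 4 counts, and HDDC2 and SLC2A9, each 1 count away, taken by symbol from 4 genes tied at that difference. The nearest to TWIST1 were ALCAM, which differed by 2 in all, and CALD1 and DCAF4L2, which differed by 3, taken likewise from 4 tied genes. The measure compares 4 numbers in 2 libraries and was computed for the 2 genes with at least 5 shared regions by name.

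Other genes of the same programme had few shared regions near their starts. Of 54 genes in 5 lists, 14 were named by a shared region at any distance (25.9%, where 27.7% of all protein-coding genes were), and 1 within 10 kb (1.85%, against 9.79%). The lists include 6 microRNA genes, and among their 48 protein-coding genes, the set to compare with, the shares were 29.2% and 2.08%. The gene with one within 10 kb was SIN3A, a scaffold of histone deacetylase complexes, with summits 832 bp and 835 bp from its TSS in a CpG island (top 38.5% and 23.3%). Among 14 other factors of the transition and their partners, TCF4, TCF12, ID4 and PRRX1 had one further out. TCF4 and TCF12 are E proteins that pair with TWIST factors, and their nearest were 16002 bp and 21767 bp from a TSS. ID4, which encodes an inhibitor of helix-loop-helix proteins, had one 59165 bp away in the top 1.5% and 0.783%.

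Of 12 genes that oppose the transition, GRHL2 and ESRP1 were named by a shared region, the nearest 21548 bp and 37195 bp away. No listed microRNA gene was named by one, neither those of the miR-200 family, which target ZEB1 and ZEB2, nor MIR205. A name goes to the nearest TSS only, and no window was counted around these genes, so regions beside them under another name were not examined. Of 12 corepressors, CTBP2, which binds ZEB proteins, had one in the top 3.45% and 2.88% at 26258 bp, and EZH2, the methyltransferase of Polycomb repressive complex PRC2, one in the top 3.82% and 1.54% at 19667 bp. HDAC2 and LIMD1 had others. Of 9 invasive and adhesion genes, CDH1, the E-cadherin gene repressed by these factors, had 1 at 20492 bp in the top 27.9% and 20.1%, and CDH2, for N-cadherin, had 3 with the nearest 416686 bp away. Of 7 genes that act in the turnover of these proteins, GSK3B alone had any, at 31786 bp. Those beyond 10 kb are named after their values were seen.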

How the data were processed

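Chromatin immunoprecipitation with an HA antibody was followed by sequencing in 501mel cells. Per the file headers, a list of summits from each ChIP sample was annotated with HOMER annotatePeaks.pl on hg38, giving the distance to the nearest TSS, which is that of the nearest annotated transcript. The peak score in each list was deposited by the authors, on a scale the headers do not state, and was used only for ranks within its list. FastQC 0.11.7, cutadapt 2.8, Bowtie2 2.3.5, MACS2 2.1.2 and SAMtools 1.9 are named in the submitters' processing notes, without roles. The calling threshold is not given in the sources used here. Read depth is unknown. Distances and other columns were used as deposited.

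Summits of the 2 lists were paired as mutual nearest neighbours within 200 bp, in Python 3.11.15 with numpy 2.4.6 and pandas 2.3.3. The pairing code was run on simulated summits set farther apart than this limit, with partners shifted by less than it. Such a run checks the code only and does not measure how well pairing works in these lists. Rank percentages are the rank, ties at their best, over the list length. Gene spans and names came from the RefSeq table of GRCh38.p14, with 19970 protein-coding genes on chromosomes 1 to 22 and X. The TSS of ZEB1 was its RefSeq start, and the others followed from the deposited distances. Intervals are 95% Wilson intervals (scipy 1.17.1). The members, gene lists and tests were chosen with earlier results of these data known. Regions given in full are those within 10 kb of a TSS, the one of lowest rank sum and the nearest summit of each gene, and further ones were described after their values were seen. No test between groups was made, since there was 1 ChIP condition.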

Additional observations from a re-analysis of the deposited data

How the results depend on the processing

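No paired analysis was possible because the input samples that share replicate numbers with the ChIP samples were not analysed here, and no result came from a test. The comparison of the melanocytic and invasive pairs depended on how summits were assigned. The difference in shared regions, -1 by nearest gene, became 2 with pairing within 50 bp (5 against 3), 0 within 500 bp (8 against 8), 0 for scores at or above the median (5 against 5), 3 within 100 kb of the named TSS (7 against 4) and 17 in spans extended by 100 kb (22 against 5). With settings chosen after seeing the data it was 10 with ZEB2-AS1 counted as ZEB2 (18 against 8) and 28 in spans extended by 1 Mb (64 against 36). The turn with ZEB2-AS1 follows from its summits alone. From a single replicate it was -10 to 0, with 8 to 9 summits at the melanocytic pair and 9 to 18 at the invasive pair. Summits with a partner fell to 40% and 27.6% within 50 bp, which admits fewer pairs, and stayed inside their intervals otherwise. The median gap between paired summits was 51 bp for the shared regions of members and 28 bp for all shared regions. The 50 bp limit lies between these medians, so it removed a larger share of the member pairs than of all pairs. The share of all peaks with a partner within 50 bp was not computed. At 50 bp SNAI1 and TWIST2 lost their only shared region. For single genes, 37 of 54 alternatives stayed within 1.5 times the count. These include ZEB1, which was at 0 in all but the spans extended by 1 Mb. Most settings cannot add a region to a gene that no summit names, so this count is a weak measure of stability. Depth is unknown, so the lack of summits at ZEB1 has no limit of detection.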
